A study of Homo sapiens with 6 samples.

Results

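The hexosamine pathway genes GFPT1, GNPNAT1, PGM3 and UAP1, together with OGT, the gene of O-GlcNAc transferase, were followed between libraries labelled THP-1 alone and libraries labelled THP-1 given RBP4. They are the 5 rows of the deposited table, out of 28847 genes, that carry these gene names. The design text speaks of an M0 (unpolarized) macrophage model treated with recombinant human RBP4, the plasma carrier of retinol. All 6 libraries were made from poly-A RNA of cells labelled THP-1, the name of an established human monocytic leukaemia cell line. The control group holds 3 libraries of THP-1 alone and the RBP4 group 3 libraries of THP-1 with the protein. No dose, exposure time or differentiating agent is stated in the labels used here. Nothing in the labels says that the 3 libraries of a group came from separate cultures, so p-values measure only the spread between libraries, which may be technical.

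The hexosamine pathway turns a small share of the cell's glucose into UDP-GlcNAc, the activated sugar from which N-glycans, glycosaminoglycans, lipid anchors and O-GlcNAc are built. GFPT1 takes fructose 6-phosphate out of glycolysis and adds the amino group of glutamine, the committed step. GNPNAT1 then adds an acetyl group from acetyl-CoA, PGM3 moves the phosphate, and UAP1 joins the sugar to UTP. OGT transfers GlcNAc from UDP-GlcNAc to serine and threonine residues of nuclear and cytosolic proteins, and OGA removes it. GFPT1 is a known target of the spliced form of XBP1, a transcription factor of the unfolded protein response.

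RNA of the members came from libraries of 15202000 to 16420517 reads. Transcripts of the mitochondrial genome took 5.90% to 6.10% of reads in the control and 7.58% to 7.69% in the RBP4 libraries. Of 10 monocyte and macrophage markers, 3 reached 10 CPM (reads scaled to an equal total per library) in all 6 libraries. CD14, CD68, CD163, MRC1 and CSF1R stayed at or below 3.21 normalized reads in every library. Another gene overlaps 81.7% of the exon bases of CD68, and how reads shared by genes were counted is not known. FCGR2A and SPI1 were present, with control means of 1702 ± 57.5 and 638 ± 9.52 normalized reads. All 10 erythroid markers reached 10 CPM, though another gene overlaps 49.8% of the exon bases of HBG2. The near absence of CD14, CD68, CD163, MRC1 and CSF1R and the presence of erythroid genes go against the label. The other 5 monocyte markers were expressed, so that list is split, and the groups are named here by their labels only. Summed over each marker list, monocyte genes stood at 173 to 181 CPM in the control and 186 to 193 in the RBP4 libraries, and erythroid genes at 1909 to 1932 and 1619 to 1676. The 2 epithelial markers in the table summed to 51.2 to 55.5 and 33.8 to 37.5 CPM, and the 3 fibroblast markers to at most 10.7 and 13.7. T cell markers summed to at most 4.47 and B cell markers to at most 8.22 CPM. The part of these differences in the results on the members was not tested.

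The enzyme at the entry of the pathway rose and the enzyme at its end fell. GFPT1 was 1.65-fold higher in the RBP4 libraries, UAP1 was 1.36-fold lower and OGT was 1.20-fold higher. PGM3 was 1.07-fold higher, a call that rested on a single library, and GNPNAT1 did not pass the test. The steps of the pathway therefore did not move in the same direction.

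Of 15676 genes tested in the RBP4 against control comparison, 50.6% were called, which means a p below 0.05 from limma after adjustment by the method of Benjamini and Hochberg. Raised genes made up 24.5% of the genes tested and lowered genes 26.1%. Of all calls, 48.4% were raised, and 61.7% when libraries were scaled to equal total reads, which shifts log2 fold changes by 0.068 at the median. Of the 5 members, 4 were called, 3 raised and 1 lowered. All 5 members are abundant. Among protein-coding genes with a mean at least as high as that of GNPNAT1, the lowest member, 67.4% were called in either direction and 18.5% were raised. With 5 genes, a count of 4 is close to that share, and each gene is described by its own size and direction. The median log2 fold change was 0.098 over the 5 members and -0.0021 over all genes tested.

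Promoter sequences were read for the members that moved most, because GFPT1 and OGT rose and UAP1 fell. RefSeq windows (GRCh38.p14), each of 300 bases with 250 before and 50 after an annotated start, were found for 5 of the 5 members, 8 windows in all. Shown 5′ to 3′ on the gene's strand are the bases before the outermost start in GENCODE release 29, for GFPT1 at chr2:69387255-69387477 (minus strand), for UAP1 at chr1:162561281-162561505 (plus strand) and for OGT at chrX:71532854-71533082 (plus strand). Capitals mark the GC box GGGCGG or its reverse complement CCGCCC, and the hexamer CCACGT.
GFPT1: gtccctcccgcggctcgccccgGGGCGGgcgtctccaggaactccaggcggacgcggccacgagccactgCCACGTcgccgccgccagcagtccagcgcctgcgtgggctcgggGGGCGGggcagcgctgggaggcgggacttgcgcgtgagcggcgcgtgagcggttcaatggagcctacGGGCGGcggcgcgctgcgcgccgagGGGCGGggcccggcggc
UAP1: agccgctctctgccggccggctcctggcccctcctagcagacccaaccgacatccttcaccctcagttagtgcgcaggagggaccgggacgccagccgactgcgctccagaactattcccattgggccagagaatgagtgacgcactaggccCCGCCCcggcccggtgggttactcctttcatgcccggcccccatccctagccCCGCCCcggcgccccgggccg
OGT: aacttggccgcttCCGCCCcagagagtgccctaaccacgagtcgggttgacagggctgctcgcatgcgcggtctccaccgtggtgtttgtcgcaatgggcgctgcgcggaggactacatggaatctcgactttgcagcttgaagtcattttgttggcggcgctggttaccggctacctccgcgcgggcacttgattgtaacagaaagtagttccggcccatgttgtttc

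The stretch before GFPT1 was 80.3% G and C and held 4 GC boxes. That before UAP1 was 69.8% G and C with 2 GC boxes, and that before OGT 58.5% with 1. A GC box was present in 45.0% of all 35116 promoter windows of the table. On both strands, the unfolded protein response element TGACGTGG, the endoplasmic reticulum stress element (CCAAT, then 9 bases of any kind, then CCACG), its second form (ATTGG, 1 base, CCACG) and the C/EBP-ATF element TGATGNAA were absent from all 8 windows of the members (0 windows). They were present in 0.729%, 0.0769%, 0.0541% and 3.62% of all windows.

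The hexamer CCACGT, which is contained in TGACGTGG on the other strand and shares CACGT with E-boxes and the hypoxia element, was searched after the sequences had been seen. It was present in 9.72% of all windows and in 4 of the 8 member windows, belonging to GFPT1, GNPNAT1, PGM3 and UAP1. Counted along the gene's strand with -1 the base before the RefSeq start, its leftmost base lay at -180 in GFPT1, at -8 in PGM3, at 28 in GNPNAT1 and at 3 in the third window of UAP1. The OGT window held none. Each match is shown with its neighbours, in a stretch of 30 bases, so that the flanks can be compared, with the hexamer or its reverse complement ACGTGG in capitals.
GFPT1 site: cacgagccactgCCACGTcgccgccgccag
PGM3 site: agccacgcagggCCACGTctgcggttctga
GNPNAT1 site: gcgttggcgctgCCACGTctgggccgcggt
UAP1 site: ccacgcgctcagACGTGGacacgcgtcgca
GFPT1, PGM3, GNPNAT1 and UAP1, which share the hexamer at different places, had log2 fold changes of 0.72, 0.098, -0.076 and -0.45. Any part of the hexamer in these values was not tested. A match of letters says nothing on binding.

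GFPT1, the committed enzyme (ENSG00000198380, chromosome 2, 69319769 to 69387254 on GRCh38, minus strand), had 2529, 2657 and 2678 normalized reads in control libraries 1, 2 and 3. In RBP4 libraries 1, 2 and 3 it had 4333, 4396 and 4252. All 3 RBP4 libraries stood above all 3 control libraries, and the libraries within a group lay close together. The means were 2622 ± 80.5 and 4327 ± 72.3 normalized reads (SD, n = 3 per group), a 1.65-fold difference. The log2 fold change was 0.72 (SE 0.032, 95% interval 0.66 to 0.79, limma adjusted p = 3.1e-30). Of all genes tested, 91.4% had a lower log2 fold change. In these bulk libraries a change in the cells' makeup and a change of RNA per cell cannot be told apart.

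GNPNAT1, the acetyltransferase (ENSG00000100522, chromosome 14, 52775194 to 52791668, minus strand), was the least abundant member. It had 603, 633 and 606 normalized reads in the control and 556, 595 and 598 in the RBP4 libraries. The groups did not overlap, which was so for 56.2% of the genes tested, but the gap between them was small beside the spread within each group. The log2 fold change was -0.076 (SE 0.061, 95% interval -0.20 to 0.046, limma adjusted p = 0.308). A difference of the size seen for GFPT1, UAP1 or OGT lies outside this interval.

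PGM3, the mutase (ENSG00000013375, chromosome 6, 83161150 to 83193936, minus strand), had 2249, 2274 and 2241 normalized reads in the control and 2336, 2417 and 2489 in the RBP4 libraries. The RBP4 libraries were all higher, and they were spread more widely than the controls, with an SD of 76.6 against 17.1 (n = 3 per group). The log2 fold change was 0.098 (SE 0.036, 95% interval 0.026 to 0.17, limma adjusted p = 0.0185). Without RBP4 library 3 the call was lost, with a log2 fold change of 0.076 (limma adjusted p = 0.116), in a range of 8.3e-05 to 0.116 over the alternatives. With libraries scaled to equal totals the log2 fold change was 0.17. The authors' deposited table gave PGM3 an adjusted p of 0.0683. The reads are not strand-specific, and 14.8% of the exon bases of PGM3 (1087 bases) also belong to exons of DOP1A on the opposite strand. DOP1A had 425 ± 23.0 and 487 ± 32.5 normalized reads (n = 3 per group), and its part in the PGM3 value was not tested.

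UAP1, the pyrophosphorylase that makes UDP-GlcNAc (ENSG00000117143, chromosome 1, 162561506 to 162599842, plus strand), had 3654, 3676 and 3588 normalized reads in the control libraries. In the RBP4 libraries it had 2677, 2606 and 2732. All RBP4 libraries were lower, with no overlap. The means were 3639 ± 45.6 and 2672 ± 63.0 (SD, n = 3 per group), which is 1.36-fold lower with RBP4. The log2 fold change was -0.45 (SE 0.033, 95% interval -0.51 to -0.38, limma adjusted p = 3.8e-19). Of all genes tested, 7.76% had a lower log2 fold change.

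OGT, the transferase (ENSG00000147162, chromosome X, 71533083 to 71575897, plus strand), was the most abundant member. It had 12866, 12999 and 12915 normalized reads in the control and 15441, 15642 and 15392 in the RBP4 libraries. The RBP4 libraries stood together above the controls without overlap. The means were 12927 ± 67.0 and 15492 ± 133 (SD, n = 3 per group), a 1.20-fold difference. The log2 fold change was 0.26 (SE 0.022, 95% interval 0.22 to 0.31, limma adjusted p = 3.1e-16). Of all genes tested, 56.0% had a smaller log2 fold change in absolute size, so the rise of OGT was precise but of ordinary size. GENCODE release 29 lists 11 transcripts of OGT, of which 5 are retained-intron forms and 3 are annotated as protein-coding. Values per gene do not separate them.

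**Figure D1:**
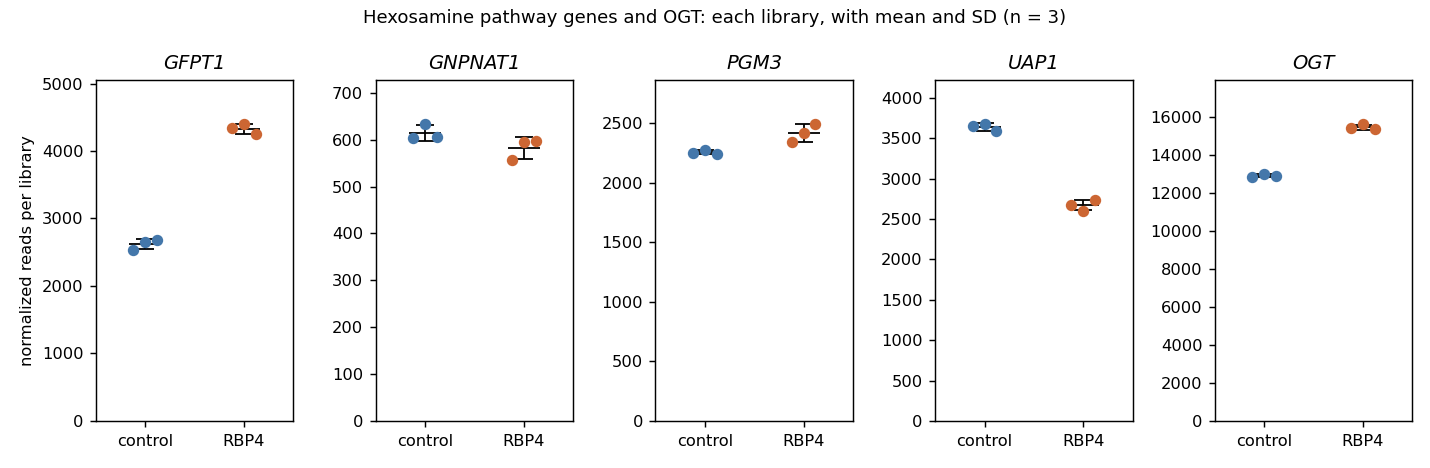
Normalized reads (vertical axes, each from 0) of GFPT1, GNPNAT1, PGM3, UAP1 and OGT in the 3 control and 3 RBP4 libraries; points are libraries, horizontal bars the means and whiskers 1 SD. GFPT1 rises from 2622 to 4327 and UAP1 falls from 3639 to 2672, while the GNPNAT1 groups lie close together.

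The plot of fold change against abundance sets the members among all genes. GFPT1 lay above and UAP1 below most of the genes tested, and the other 3 members lay between them. UAP1 was not at the lower edge of genes of like abundance. HK2, with a mean of 3072 normalized reads beside 3155 for UAP1, had a log2 fold change of -1.28.

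**Figure D2:**
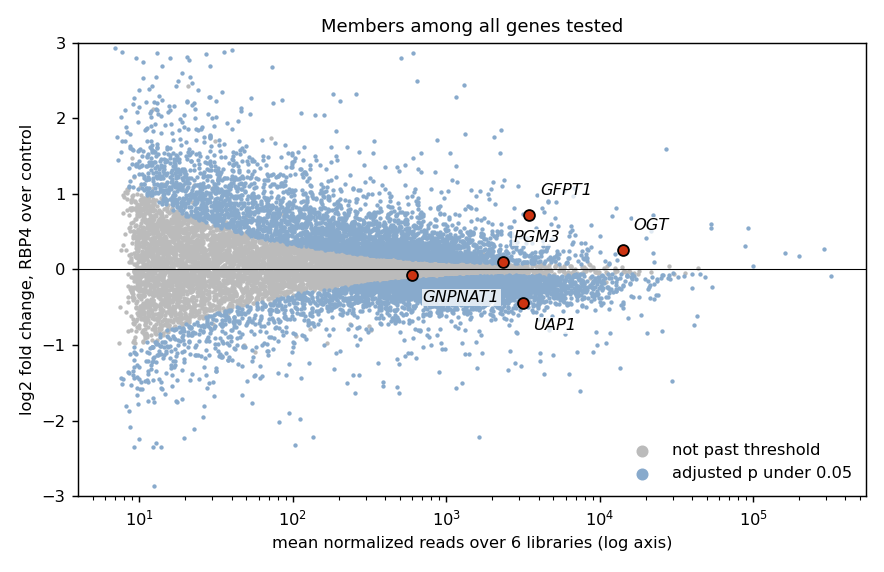
Log2 fold change of RBP4 over control (vertical axis, limited to 3 in either direction, which leaves out 13 genes) against mean normalized reads over 6 libraries (horizontal log axis) for the 15676 genes tested; blue points passed an adjusted p under 0.05. GFPT1 at 0.72 lies above most genes tested, UAP1 at -0.45 below most genes tested, and PGM3 and GNPNAT1 near 0.

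Levels between genes were compared per length, as RPKM (reads per kilobase of exon, scaled to the total reads of a library), with the exon length of the table. In the control libraries the order was OGT at 81.1 ± 0.39, UAP1 at 65.2 ± 0.90, PGM3 at 18.9 ± 0.16, GFPT1 at 18.2 ± 0.53 and GNPNAT1 at 9.43 ± 0.25 (SD, n = 3). PGM3 and GFPT1 were neighbours whose means differed by little more than the SD of GFPT1, and the other neighbours were far apart beside their spread. In the RBP4 libraries the order was OGT at 102 ± 0.90, UAP1 at 50.2 ± 1.16, GFPT1 at 31.5 ± 0.56, PGM3 at 21.2 ± 0.63 and GNPNAT1 at 9.38 ± 0.36. GFPT1 had moved above PGM3, with 30.9 to 32.0 against 20.6 to 21.9 in single libraries. On this scale the entry enzyme and the acetyltransferase and mutase after it stayed below UAP1 and OGT in both groups. The length counts the exons of all annotated transcripts, 8866 bases for GFPT1 and 3437 for UAP1. In normalized reads, not divided by length, GFPT1 at 4327 stood above UAP1 at 2672 in the RBP4 libraries. RPKM divides by total reads and not by the authors' size factors.

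**Figure D3:**
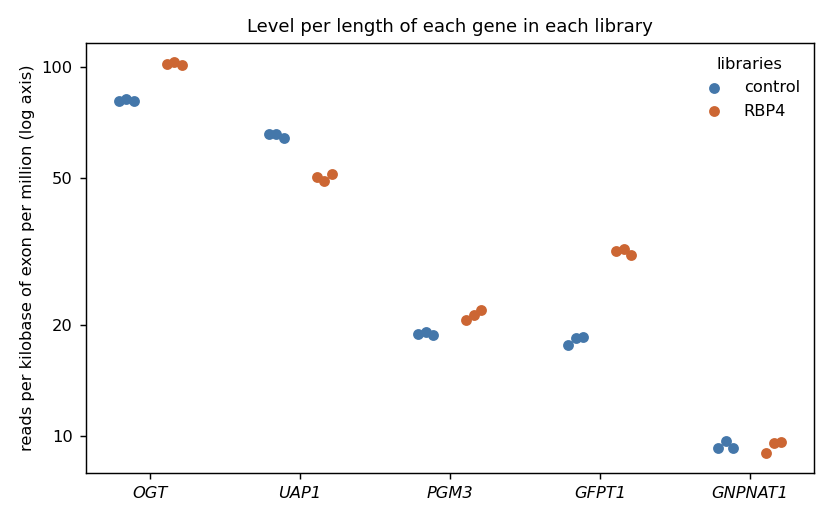
RPKM (vertical log axis) of the 5 members in each of the 3 control and 3 RBP4 libraries, 1 point per library. OGT and UAP1 lie highest in both groups, and GFPT1 goes from about the level of PGM3 at 18.9 to 31.5.

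The balance between the members was examined as ratios within each library, on the log2(value + 1) scale. The log2 ratio of GFPT1 to OGT was -2.35, -2.29 and -2.27 in control libraries 1, 2 and 3 and -1.83, -1.83 and -1.86 in RBP4 libraries 1, 2 and 3. It was higher in every RBP4 library, by 0.46 on average, so GFPT1 rose more than OGT. OGT was also set against OGA, the enzyme that removes O-GlcNAc. OGA had 2812, 2958 and 2773 normalized reads in the control and 2634, 2395 and 2572 in the RBP4 libraries, lower in all 3. Its log2 fold change was -0.17 (SE 0.036, limma adjusted p = 6.3e-05). The log2 ratio of OGT to OGA was 2.19, 2.14 and 2.22 in the control and 2.55, 2.71 and 2.58 in the RBP4 libraries, a mean difference of 0.43. For both ratios the exact two-sided permutation test gave p = 0.10, the smallest value that 3 against 3 libraries allow. The test can therefore not pass the threshold in this design.

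**Figure D4:**
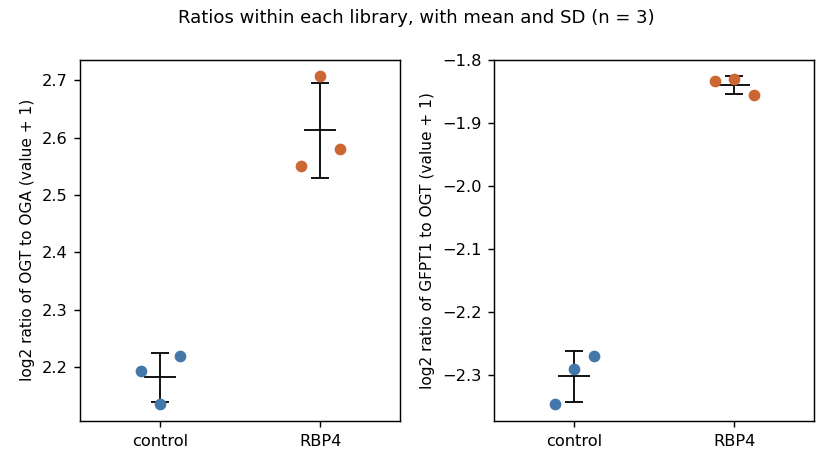
Log2 ratios of OGT to OGA (left) and of GFPT1 to OGT (right) within each library, computed on values + 1; points are libraries, bars means and whiskers 1 SD (n = 3 per group), and the vertical axes do not start at 0. Both ratios are higher in all 3 RBP4 libraries, by 0.43 and 0.46 on average.

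The paralogs of the members behaved unlike each other. GFPT2, the second amidotransferase, had a mean of 1.71 normalized reads in the control and 1.59 in the RBP4 libraries, at or below the limit of 3 reads that a count of 0 allows, and was not tested. Nearly all reads of the entry step therefore came from GFPT1. UAP1L1, a paralog of UAP1, rose from 249 ± 19.5 to 412 ± 26.5 normalized reads (n = 3 per group), 1.66-fold (log2 fold change 0.73, SE 0.083, limma adjusted p = 1.9e-11). It moved against UAP1 and was much the smaller in reads.

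Of 9 genes that salvage amino sugars or return them to glycolysis, 4 rose, 2 fell and 3 were short of the threshold, and their median log2 fold change was 0.21. The share called, 66.7%, stands beside 50.6% of all genes tested and 67.4% of the protein-coding genes at least as abundant as GNPNAT1. With the libraries scaled to equal totals, 6 rose and 2 fell. RENBP, an epimerase of N-acetylglucosamine, rose from 284 ± 34.0 to 456 ± 17.3 normalized reads, 1.60-fold (n = 3 per group). NAGK, the kinase that brings free N-acetylglucosamine back into the pathway, rose from 167 ± 14.3 to 260 ± 9.64 normalized reads, 1.55-fold. AMDHD2, a deacetylase that runs against the pathway, rose 1.24-fold (limma adjusted p = 0.00427). GNPDA1 and GNPDA2, deaminases that turn glucosamine 6-phosphate back into fructose 6-phosphate, fell by 0.24 and 0.26 on the log2 scale (limma adjusted p = 3.1e-05 and 9.9e-04). The deaminases thus moved against GFPT1, whose reaction they oppose.

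Genes that carry or use UDP-GlcNAc were followed in 3 lists. Of 11 genes of nucleotide sugar branches and transport, 2 rose, 2 fell and 7 did not pass (median 0.019). The share called, 36.4%, was below the 50.6% of all genes tested. With libraries scaled to equal totals 5 rose and 1 fell. GNE, which leads to sialic acid, stood at 403 ± 4.08 and 448 ± 5.35 normalized reads (limma adjusted p = 0.0623, and 0.00657 with that scaling). CMAS, which activates sialic acid, fell by 0.16 on the log2 scale, and NANP, a phosphatase of the same branch, by 0.24, a call lost with that scaling (limma adjusted p = 0.0761). The nucleotide sugar transporters SLC35D1 and SLC35D2 had log2 fold changes of 0.19 and 0.35, and 46.8% of the exon bases of SLC35D2 overlap another gene.

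Of 11 genes that spend UDP-GlcNAc on N-glycans, 2 rose, 1 fell and 8 did not pass (median -0.014, and 0.053 with libraries scaled to equal totals). The share called, 27.3%, was below the 50.6% of all genes tested. MGAT3, which adds the bisecting GlcNAc, fell from 1049 ± 11.8 to 838 ± 29.1 normalized reads. MGAT4A and MGAT4B, which start branches, rose by a log2 fold change of 0.81 and 0.17. MGAT4A was much the less abundant, at 79.8 ± 9.77 and 141 ± 15.6 normalized reads. MGAT4B stood at 1644 ± 117 and 1843 ± 44.9. Of 14 other listed users of UDP-GlcNAc 10 were tested, and 6 of them rose, 1 fell and 3 were short of the threshold (median 0.13; 6 rose and 0 fell with that scaling). The share called among these users, 70%, stands beside 50.6% of all genes tested and 67.4% of the protein-coding genes at least as abundant as GNPNAT1. PIGQ, PIGP and PIGC, subunits of the enzyme that starts the GPI anchor, rose 1.33-fold, 1.37-fold and 1.23-fold. EXT2, a heparan sulfate polymerase, fell by 0.13 on the log2 scale, a call lost with libraries scaled to equal totals (limma adjusted p = 0.282).

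Of 11 genes that supply the substrates of the pathway, 7 fell, 2 rose and 2 were short of the threshold, and the median log2 fold change was -0.25. Lowered genes made up 26.1% of all genes tested and 48.9% of the protein-coding genes at least as abundant as GNPNAT1. With libraries scaled to equal totals 6 fell. HK2, a hexokinase, fell from 4354 ± 98.6 to 1789 ± 35.0 normalized reads (log2 fold change -1.28, limma adjusted p = 1.1e-43). GPI, which makes the fructose 6-phosphate that GFPT1 uses, fell from 12271 ± 372 to 5729 ± 135. GLUL, glutamine synthetase, fell from 52124 ± 334 to 33874 ± 385, while SLC1A5, a glutamine importer, rose from 5415 ± 55.2 to 7763 ± 47.1 normalized reads. Another gene overlaps 23.4% of the exon bases of SLC1A5. GFPT1 thus rose in libraries where the hexokinase and isomerase ahead of it fell.

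**Figure D5:**
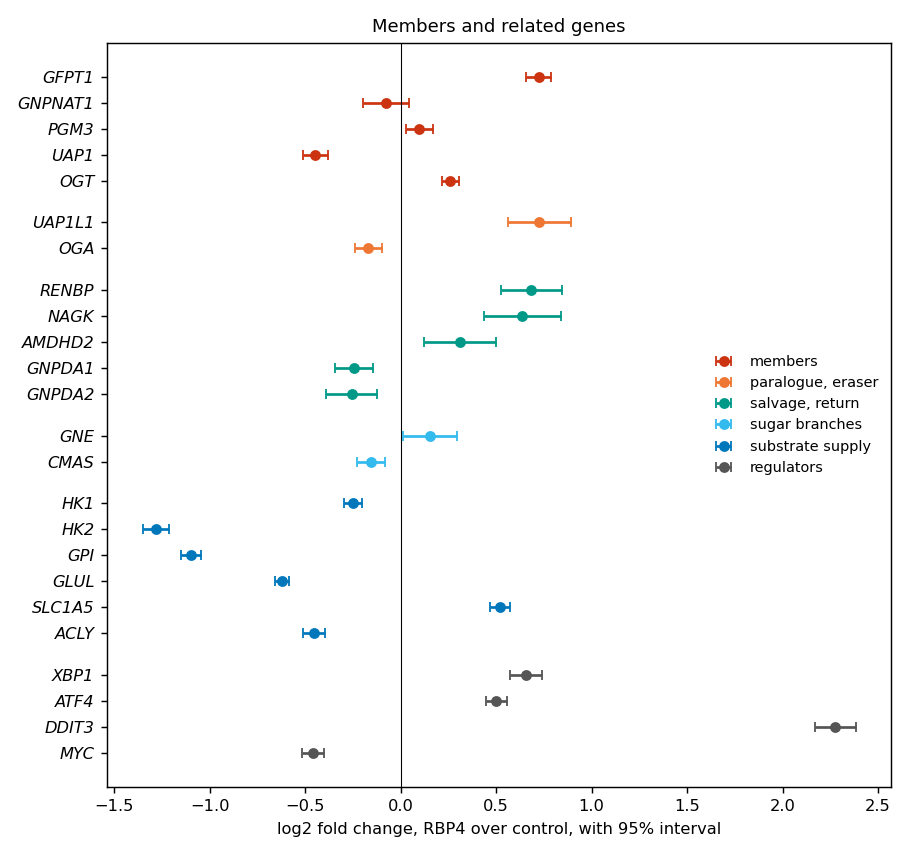
Log2 fold change of RBP4 over control (horizontal axis) with its 95% interval from limma for the 5 members and 19 related genes, grouped by role. The interval of GNPNAT1 spans 0, UAP1 and UAP1L1 lie on opposite sides of 0, and HK2 and GPI lie furthest to the left.

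Among 10 tested genes of OGT partners and targets, 4 fell, 1 rose and 5 were short of the threshold (median -0.058, and 0.010 with libraries scaled to equal totals). The share called, 50%, was close to the 50.6% of all genes tested. It was below the 67.4% of the protein-coding genes at least as abundant as GNPNAT1, of which 48.9% were lowered. HCFC1, the host cell factor that OGT glycosylates and cleaves, fell from 4490 ± 124 to 3741 ± 71.6 normalized reads (n = 3 per group; limma adjusted p = 4.1e-11). TET1, a DNA demethylase of a family that binds OGT, fell from 1378 ± 84.0 to 960 ± 11.3, and SIN3A, a co-repressor that recruits OGT, from 1244 ± 20.8 to 1036 ± 35.6. TRAK2, an adaptor of mitochondrial transport, rose from 550 ± 26.0 to 825 ± 30.1. OGT itself rose while HCFC1, TET1 and SIN3A fell.

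All 8 listed transcription factors and sensors tied to the pathway were called, 5 raised and 3 lowered (2 lowered with libraries scaled to equal totals). Their median log2 fold change was 0.26. The share called was 50.6% over all genes tested and 67.4% over the protein-coding genes at least as abundant as GNPNAT1. XBP1 rose from 1304 ± 52.7 to 2054 ± 45.2 normalized reads, 1.58-fold (n = 3 per group; limma adjusted p = 1.9e-22). Values per gene do not separate its spliced form. ATF4 rose 1.42-fold and DDIT3 4.85-fold, with 27.2% of the exon bases of DDIT3 overlapping MARS. MYC fell from 7504 ± 282 to 5464 ± 138 normalized reads. These genes were chosen with the stress response of these libraries already known, so their direction is no independent evidence.

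Likeness of pattern was measured as the root mean square difference, over the 6 libraries, of log2(value + 1) minus the control mean, among 9801 protein-coding genes with a mean of at least 100 normalized reads. The gene most like GFPT1 was HSP90B1, the HSP90 chaperone of the endoplasmic reticulum, at a difference of 0.019 and with means of 16795 and 27583 normalized reads. MET and XRCC2 followed at 0.029 and 0.034. RHEB, CHD6 and PPIA were most like UAP1, and ADAL, VAT1 and CCNB1IP1 most like OGT. SUPT6H, RPAP1 and HSD17B11 were most like PGM3, and HINFP, SAP18 and TYK2 most like GNPNAT1. With 6 libraries in 2 groups this likeness mostly reflects a similar fold change and is given as a description.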

How the data were processed

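Poly-A RNA of 6 libraries was sequenced with a kit that does not mark strand, per the labels' protocols. No aligner or read counter is named in the sources used here. In the deposited table each gene has a normalized signal for every library, a mean signal for each group, and the authors' own log2 fold changes and p-values, per the file headers. All signals of a library were whole multiples of the same step within 0.01 reads, and the steps were the reciprocals of DESeq2 size factors. Reads recovered in this way served for depth, CPM, RPKM and the alternative tests. In control library 2 the step was 1.01, too close to 1 for an automatic test. No per-sample column was left unused (0 columns). Coordinates of all 28847 genes equalled GENCODE release 29 (GRCh38).

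Groups came from the sample titles. Genes reaching 10 normalized reads in 3 or more libraries were fitted with limma-trend (robust) on log2(value + 1), with the group as the only term (limma 3.58.1 in R 4.3.3), two-sided, with Benjamini-Hochberg adjustment over all genes tested and a threshold of 0.05. Fold changes called log2 are on that scale, which understates those of low genes, and SE is their standard error. Alternatives were other pseudocounts, filters and scaling, a replicate block, edgeR 4.0.16, DESeq2 1.42.0 and leaving out each library. The members and lists were chosen with earlier results of these data known. Named were all members, 10 preset pathway genes (1 of them is not reported here), of each list up to 4 genes with the smallest p past the threshold, and for each member the 3 protein-coding genes most alike in pattern.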

Additional observations from a re-analysis of the deposited data

How the results depend on the processing

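GFPT1, UAP1 and OGT kept their direction and stayed past the threshold, and GNPNAT1 stayed short of it, under all 14 alternatives tried. Leaving out single libraries gave log2 fold changes of 0.70 to 0.74 for GFPT1, -0.46 to -0.43 for UAP1, 0.25 to 0.27 for OGT, 0.076 to 0.12 for PGM3 and -0.094 to -0.042 for GNPNAT1. PGM3 lost its call without RBP4 library 3 only, where fewer libraries were fitted, so 3 to 4 members were called. The log2 ratios moved between 0.38 and 0.46 (OGT to OGA) and between 0.44 and 0.48 (GFPT1 to OGT). Scaling to equal totals gave 0.79, -0.38, 0.33 and 0.17 for GFPT1, UAP1, OGT and PGM3. Over all genes, 6510 (DESeq2) to 7999 (no filter) were called against 7934, and 7921 with edgeR.

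Replicate numbers did not pair the samples: deviations of libraries with the same number correlated at 0.0037, -0.0079 and -0.017. With the replicate number as a block 7829 genes were called, and the same count of 4 members, with limma adjusted p = 0.0233 for PGM3. For the ratios, the block left exact p = 0.25, the smallest that 3 pairs allow. Among the paralogs of the members, GFPT2 lay under the depth limit of 3 reads on average in both groups, and so did the markers CD14, CD68, CD163, MRC1 and CSF1R and the listed genes HAS1, EXT1 and PPARGC1A, none of which was tested.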
